A study of Mus musculus with 16 samples.

Results

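The heavy chain variable (V) gene segments are the rows of the count table whose gene name starts with Ighv, 114 of 39179 rows. They were measured in poly(A) RNA of negatively selected splenic B cells of NOD.LT mice, which belong to the non-obese diabetic mice, prone to autoimmune diabetes. At sampling the animals were 15 weeks of age and had been on their diet for 5 weeks, with 4 libraries for each of 4 diets. HAMSA is high-amylose maize starch carrying acetate, HAMSB is the same kind of starch carrying butyrate, and HAMS is the starch without either acid. NP is taken here as the diet without this starch, and the treatment text gives the name Gordons where the diet label has NP. No genetic change or other treatment is given for any group. The libraries keep the numbers of their labels, which do not say which animals they came from, so that p-values measure the spread between libraries, which may be technical. The design text gives 4 samples per diet and also mentions triplicates.

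A B cell assembles its heavy chain by joining 1 of many V segments to a D and a J segment, and all its progeny carry that join. The V segment encodes most of the antigen-binding part of the chain, and segments of similar sequence form families that lie interleaved along the locus. In an unselected splenic population the V segments in RNA come from very many clones, and a clone that grew or makes much antibody RNA raises the count of its own segment. A poly(A) library counts RNA, so more cells of a clone and more antibody RNA per cell cannot be told apart here.

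Total gene counts were 15053965 to 30723337 in HAMSA, 34720317 to 46206200 in HAMSB, 31826691 to 37929476 in HAMS and 31707731 to 42752976 in NP libraries, so every HAMSA library was shallower than every other library. B cell marker genes were high in every library, with Cd79a, which encodes a signalling subunit of the B cell receptor, at 1790 to 3074 and Ms4a1, which encodes CD20, at 700 to 1650 CPM (counts scaled to the TMM-adjusted library total). RNA of other spleen cells was present too. CPM summed over a gene list, here and below, were scaled to the library total without the TMM adjustment. The summed CPM of 4 erythroid markers was 246 to 3135 in HAMSA, 9.41 to 731 in HAMSB, 10.96 to 43.3 in HAMS and 33.7 to 726 in NP libraries. The 6 T cell markers summed to 24.1 to 106 CPM in HAMSA, 20.5 to 141 in HAMSB, 10.8 to 58.4 in HAMS and 12.1 to 35.98 in NP libraries.

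Of the 114 segments, 105 were matched by identifier to the GENCODE M21 annotation of GRCm38, which may not be the release the authors used. All 105 lie on the minus strand of chr12:113574245-116000461, 103 as V genes and 2 as V pseudogenes. A V gene has a short leader exon and an exon for the rest of the variable region, and the exons of the matched segments sum to 294 to 480 bases, with a median of 353. The names differ for 3 of them: Ighv1-14, Ighv13-1 and Ighv13-2 of the table are Ighv1-16, Ighv13-2 and Ighv6-7 in GENCODE M21. The table's names are used throughout. The reference sequence is that of another strain, so NOD alleles unlike it may lose reads or have them given to a related segment.

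The last 200 coding bases of the 5 segments with the highest mean share show the part of the counted RNA that meets the D segment (GRCm38, minus strand, written 5′ to 3′). The capitals mark the match, within the last 40 bases, of the letters TANTANTGN or TANTTNTGN, which cover the codon of the conserved cysteine next to the join and the pair of codons before it. One of these motifs was found there in 100 of the 103 V coding sequences, TANTANTGN in 78 and TANTTNTGN in 22, searched on the coding strand only.
Ighv1-26: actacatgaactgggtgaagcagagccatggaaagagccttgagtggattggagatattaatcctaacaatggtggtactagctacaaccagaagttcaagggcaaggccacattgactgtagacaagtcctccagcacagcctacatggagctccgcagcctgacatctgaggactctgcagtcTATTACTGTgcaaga
Ighv3-6: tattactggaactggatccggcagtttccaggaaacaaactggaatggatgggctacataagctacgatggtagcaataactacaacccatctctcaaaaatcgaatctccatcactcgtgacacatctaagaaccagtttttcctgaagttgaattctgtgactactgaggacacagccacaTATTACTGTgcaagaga
Ighv2-2: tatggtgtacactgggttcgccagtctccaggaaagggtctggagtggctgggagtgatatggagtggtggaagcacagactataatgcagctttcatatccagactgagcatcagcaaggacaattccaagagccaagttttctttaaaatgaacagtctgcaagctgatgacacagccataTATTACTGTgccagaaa
Ighv9-3: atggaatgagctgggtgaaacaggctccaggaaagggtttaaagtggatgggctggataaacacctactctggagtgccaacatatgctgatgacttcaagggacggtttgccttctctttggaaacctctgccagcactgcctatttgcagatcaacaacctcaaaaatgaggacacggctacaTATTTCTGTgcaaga
Ighv6-3: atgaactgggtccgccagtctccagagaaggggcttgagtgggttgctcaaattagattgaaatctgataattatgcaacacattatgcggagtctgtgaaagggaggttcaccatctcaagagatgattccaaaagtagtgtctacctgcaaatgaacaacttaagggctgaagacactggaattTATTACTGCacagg
They lie at chr12:114788372-114788805 (Ighv1-26), chr12:114288152-114288582 (Ighv3-6), chr12:113588267-113588702 (Ighv2-2), chr12:114140692-114141122 (Ighv9-3) and chr12:114391712-114392169 (Ighv6-3).

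Related segments are close in sequence, which bears on what a read count can separate. Between V coding sequences of the same family the median identity was 84.3% over 1252 pairs, and between families it was 58.2% over 4001 pairs. Of the 103 sequences, 16 had every 50-base window free of any copy elsewhere in the annotated transcripts, and 16 had fewer than 50% of their windows free of a copy. The least distinct were Ighv1-71 and Ighv1-62-2, each with 2.58% of windows free of a copy, and Ighv1-72 with 8.61%. The counts of these segments are uncertain, because reads placed in several positions are not in the counts. The median over segments of the mean count was 129 for the 16 segments under 50% and 98.2 for the 16 without a copy. Ighv1-53 (42.4%), Ighv2-2 (44.2%) and Ighv1-26 (50.99%) were among the most counted segments in spite of such shared windows.

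The next sequences are shown because the results on single libraries turn on them. Ighv2-9-1 and Ighv2-6-8 of the Ighv2 family differ at 19 coding bases, of which the 17 in the last 300 are given in capitals, and each was high in a different library. Ighv11-2 and Ighv11-1 differ at 4 bases, all of them in the last 300 and in capitals, and both had 47.7% of windows free of a copy.
Ighv2-9-1: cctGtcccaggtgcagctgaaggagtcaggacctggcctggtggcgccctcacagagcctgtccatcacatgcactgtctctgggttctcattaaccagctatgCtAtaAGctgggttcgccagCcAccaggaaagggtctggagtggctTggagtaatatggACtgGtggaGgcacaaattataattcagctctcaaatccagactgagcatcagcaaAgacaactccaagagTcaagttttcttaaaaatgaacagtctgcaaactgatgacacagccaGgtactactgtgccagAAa
Ighv2-6-8: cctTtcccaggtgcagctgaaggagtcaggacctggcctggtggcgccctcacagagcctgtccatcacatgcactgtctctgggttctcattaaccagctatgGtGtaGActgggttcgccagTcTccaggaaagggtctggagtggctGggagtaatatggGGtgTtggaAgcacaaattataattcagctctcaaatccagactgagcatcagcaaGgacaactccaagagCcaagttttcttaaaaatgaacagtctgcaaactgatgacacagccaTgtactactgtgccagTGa
Ighv11-2: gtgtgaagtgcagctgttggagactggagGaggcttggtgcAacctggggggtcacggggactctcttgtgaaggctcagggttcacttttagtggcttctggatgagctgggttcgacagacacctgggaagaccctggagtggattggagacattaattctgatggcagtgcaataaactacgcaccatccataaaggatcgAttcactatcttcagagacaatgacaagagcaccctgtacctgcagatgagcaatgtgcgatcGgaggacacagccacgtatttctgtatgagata
Ighv11-1: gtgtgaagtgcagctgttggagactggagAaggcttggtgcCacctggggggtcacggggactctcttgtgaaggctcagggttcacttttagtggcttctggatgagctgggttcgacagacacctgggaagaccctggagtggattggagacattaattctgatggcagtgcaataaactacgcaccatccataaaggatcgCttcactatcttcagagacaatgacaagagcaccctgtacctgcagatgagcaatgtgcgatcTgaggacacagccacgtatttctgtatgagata
Their positions are chr12:113769850-113770302 (Ighv2-9-1), chr12:113796138-113796567 (Ighv2-6-8), chr12:114048241-114048812 (Ighv11-2) and chr12:113981879-113982341 (Ighv11-1). Ighv11-2 averaged 930 counts a library and Ighv11-1 averaged 13.8.

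The segments together took 0.150% to 0.315% of all counts. In HAMSA libraries 1, 2, 3 and 6 the Ighv share of all counts was 0.211%, 0.211%, 0.163% and 0.315%. It was 0.203%, 0.207%, 0.150% and 0.210% in HAMSB libraries 1, 2, 5 and 6, and 0.184%, 0.193%, 0.187% and 0.157% in HAMS libraries 1, 4, 5 and 6. In NP libraries 1, 3, 4 and 5 it was 0.221%, 0.229%, 0.196% and 0.1899%. The ranges of the diets overlapped, and HAMSA 6 was the highest library. The means were 0.225% ± 0.0642 in HAMSA, 0.193% ± 0.0285 in HAMSB, 0.180% ± 0.0159 in HAMS and 0.209% ± 0.0190 in NP libraries (SD, n = 4 each). The Ighv total was 24475 counts in HAMSA 3, the smallest, and 97010 in HAMSB 6, the largest. Per 100 counts of Ighm, the constant region of the mu heavy chain, the Ighv counts averaged 15.2 ± 4.33 in HAMSA, 17.1 ± 0.773 in HAMSB, 16.1 ± 3.97 in HAMS and 18.7 ± 1.63 in NP libraries (SD, n = 4 each).

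All members but 2 had a count: Ighv1-62-1 and Ighv8-13 were at 0 in every library. A mean of at least 10 counts was reached by 97 segments. The counts were spread over many of them, as the 10 leading segments held 36.1% of the mean share. These 10, with their mean share of Ighv counts over the 16 libraries, were Ighv1-26 (5.995%), Ighv3-6 (5.40%), Ighv2-2 (4.17%), Ighv9-3 (4.095%), Ighv6-3 (3.77%), Ighv5-17 (2.795%), Ighv1-9 (2.66%), Ighv2-9-1 (2.47%), Ighv5-4 (2.43%) and Ighv1-53 (2.29%). Per base of exon 9 of them were also in the leading 10, and Ighv5-4 was 14th. The segment in front was not the same in every library. Ighv1-26 led in HAMSA 2, HAMSB 1, HAMSB 2, HAMS 1, HAMS 4, NP 3 and NP 5. In HAMS 1 this holds for the rows named Ighv only. Gm16710, which is Ighv1-74 in GENCODE M21, had 4379 counts there and Ighv1-26 had 3324. Ighv3-6 led in HAMSB 5, HAMS 5, HAMS 6, NP 1 and NP 4. In the remaining 4 libraries the lead fell to Ighv6-3 (HAMSA 1), Ighv1-82 (HAMSA 3), Ighv5-17 (HAMSA 6) and Ighv2-9-1 (HAMSB 6).

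Ighv1-26, of the largest family, held 5.04%, 11.4%, 4.54% and 5.14% of Ighv counts in HAMSA libraries 1, 2, 3 and 6 and 6.76%, 5.37%, 6.295% and 5.17% in HAMSB libraries 1, 2, 5 and 6. It held 4.77%, 4.695%, 5.27% and 5.63% in HAMS libraries 1, 4, 5 and 6 and 5.04%, 6.55%, 4.66% and 9.62% in NP libraries 1, 3, 4 and 5. HAMSA 2 and NP 5 stood above all other libraries for this segment. Ighv3-6 ranged over 3.33% to 7.86% in HAMSA, 4.01% to 6.73% in HAMSB, 3.77% to 9.04% in HAMS and 4.57% to 6.38% in NP libraries. Ighv2-2 and Ighv9-3 were the steadiest of the leading segments, with 3.27% to 5.13% and 3.31% to 4.87% over all 16 libraries. The diets overlapped for Ighv2-2, while the Ighv9-3 shares of HAMSB libraries (3.31% to 4.04%) all lay below those of NP libraries (4.24% to 4.57%). The Ighv9-3 log2 fold change in HAMSB against NP was −0.37 ± 0.22 (SE; edgeR adjusted p = 0.869), and 5.27% of all genes tested were without overlap of CPM in that comparison.

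The evenness of use was summarised as the effective number of segments, the exponential of the Shannon entropy, which equals the number of segments that would give the same entropy if all were used alike. In HAMSA libraries 1, 2, 3 and 6 it was 57.9, 51.4, 56.6 and 54.2, and in HAMSB libraries 1, 2, 5 and 6 it was 59.0, 58.2, 57.3 and 48.6. HAMS libraries 1, 4, 5 and 6 had 59.1, 58.7, 53.7 and 57.5, and NP libraries 1, 3, 4 and 5 had 57.5, 59.6, 61.6 and 56.2. Gm16710, which was high in HAMS 1, is left out of these values. The diets overlapped, the lowest value was that of HAMSB 6 and the highest that of NP 4. The means were 55.0 ± 2.90 in HAMSA, 55.8 ± 4.83 in HAMSB, 57.2 ± 2.45 in HAMS and 58.7 ± 2.35 in NP libraries (SD, n = 4 each). When every library was thinned to 24475 Ighv counts the means were 54.99, 55.6, 57.1 and 58.5 in the same diets. The number of segments with at least 10 counts was 89 to 101, and 89 to 93 after thinning.

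The 16 families differed widely in share, and the diets overlapped in nearly all of them. Ighv1, known as J558, has 55 segments in the table and held 43.0% of Ighv counts on average. Ighv2 (Q52, 10 segments) held 14.2%, Ighv5 (9 segments) 10.3%, Ighv3 (36-60, 5 segments) 6.83%, Ighv9 (VGAM3.8, 4 segments) 5.56% and Ighv6 (J606, 4 segments) 5.54%. Ighv7 (S107) averaged 2.94%, Ighv14 (SM7) 2.71%, Ighv8 2.63%, Ighv4 (X24) 2.25%, Ighv10 1.99% and Ighv11 1.43%. The smallest were Ighv13 at 0.287%, Ighv12 at 0.216% and Ighv15 at 0.145%, and the 1 segment of Ighv16 did not exceed 0.00393% in any library. Nearly all of the Ighv13 share was that of the table's Ighv13-2 (0.2869%), which is Ighv6-7 in GENCODE M21. These are shares of counts, which also depend on how many segments a family has and how many of its reads are unique.

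**Figure D1:**
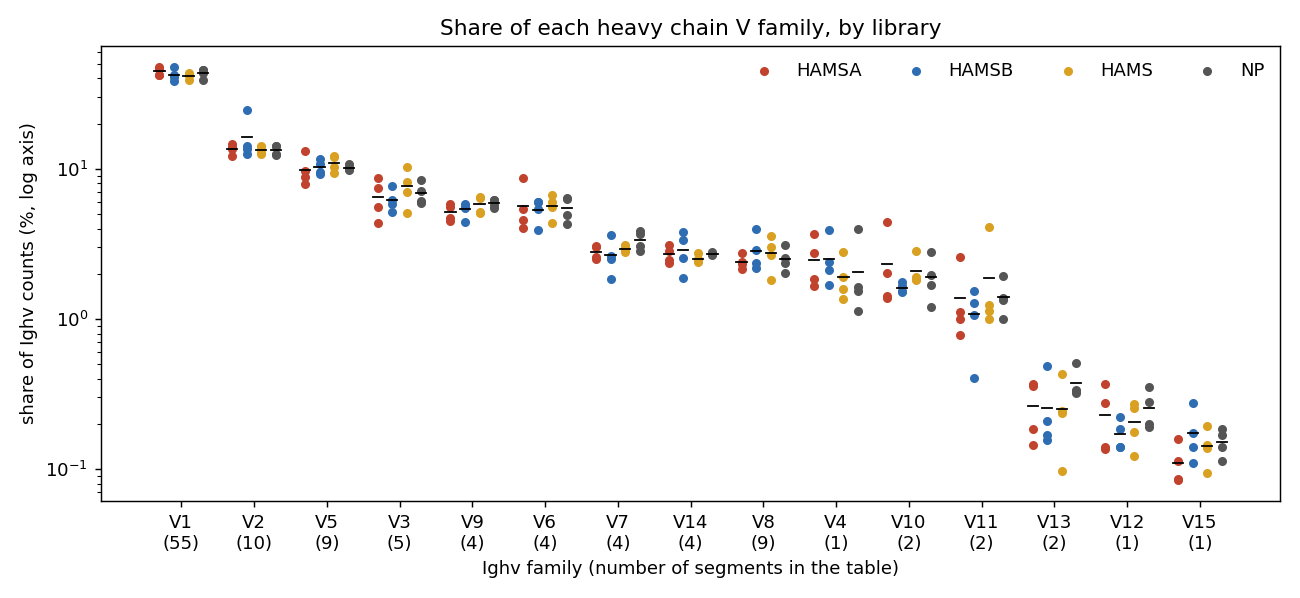
Share of Ighv counts held by each V family in each library (percent, log axis), in columns for HAMSA, HAMSB, HAMS and NP from left to right; points are libraries and bars are means of 4. Ighv16, at 0.00393% or less, is not drawn. The diets overlap in nearly every family, and HAMSB 6 stands apart in Ighv2 at 24.8%.

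The Ighv1 share was 44.5% ± 2.93 in HAMSA, 42.2% ± 4.02 in HAMSB, 41.8% ± 1.93 in HAMS and 43.4% ± 3.08 in NP libraries (SD, n = 4 each). It ran between 38.4% in HAMSB 6 and 47.97% in HAMSA 2. In the Ighv2 family HAMSB 6 held 24.8%, against 12.6% to 14.2% in the other HAMSB libraries. Ighv11, the family with the segment best known from B-1 cells, held 4.11% in HAMS 5, against 1.01% to 1.23% in the other HAMS libraries.

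Families were set against each other between diets by asking whether the shares of the 4 libraries of one diet all lay on one side of those of the other. In HAMSB against HAMS this held for 1 family of 16, and for 7.3% of all 15021 genes tested when their CPM were compared in the same way. It was Ighv10, a family of 2 segments, at 1.62% ± 0.121 in HAMSB and 2.10% ± 0.503 in HAMS libraries (SD, n = 4 each). The HAMSB libraries ran from 1.502% to 1.76% and the HAMS libraries from 1.82% to 2.86%, so the gap between the diets was small beside the spread within HAMS. With TMM-scaled CPM of the family in place of its share the diets overlapped. No family was without overlap in HAMSA against HAMS (4.01% of all genes), HAMSA against HAMSB (8.81%), HAMSA against NP (16.4%), HAMSB against NP (5.27%) or HAMS against NP (12.6%).

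Segments were tested one by one with edgeR's quasi-likelihood test, in a fit over the 15021 genes that passed the count filter, with Benjamini-Hochberg adjustment over all of them and a threshold of 0.05. The filter kept 99 of the 114 segments. No segment passed in HAMSB against HAMS, where 1.68% of all genes tested did (0.433% higher and 1.24% lower in HAMSB). None passed in HAMSA against HAMS (0% of all genes) or HAMSA against HAMSB (0.779%, with 0.586% higher and 0.193% lower in HAMSA). None passed in HAMSA against NP (1.41%, with 0.606% higher and 0.806% lower in HAMSA), HAMSB against NP (0.0732%, all lower in HAMSB) or HAMS against NP (4.33%, with 2.27% higher and 2.06% lower in HAMS). No segment passed in the test for any difference among the 4 diets either (3.78% of all genes). Unadjusted p-values under 0.05 were found for 10, 15, 14, 5, 8 and 11 segments in the 6 comparisons in this order and for 13 in the test over all diets. The shares of all genes with such a p were 14.1%, 11.7%, 19.4%, 25.1%, 6.89% and 19.3%, and 22.03% over all diets. DESeq2 called 0, 0, 1, 1, 0 and 3 segments and 5 over all diets, and limma voom called 0 in each. The shares of all genes called by these 2 methods are not given here, so their counts cannot be set against such a rate. Segments without overlap of CPM numbered 2, 4, 6, 3, 6 and 4 of 99 in the same order, set against 7.3%, 4.01%, 8.81%, 16.4%, 5.27% and 12.6% of all genes. The median SE of a segment's log2 fold change was 0.29 in each comparison, and 0.18 over all genes.

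**Figure D2:**
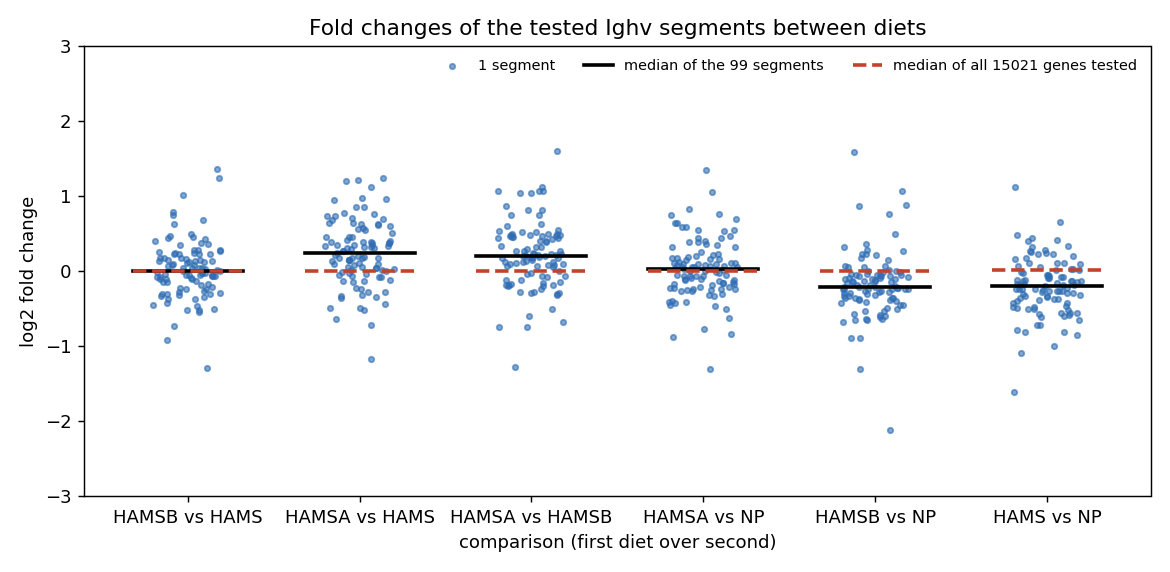
Log2 fold change of each of the 99 tested segments (points, spread sideways for legibility) in the 6 comparisons of diets, with the median of the segments (black line) and of all 15021 genes tested (dashed red line). The segments scatter around medians between −0.21 and 0.24, and none passed the test.

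The 99 segments did not lie evenly around 0 in every comparison. In HAMSA against HAMS 73 of 99 had a higher value in HAMSA and the median log2 fold change was 0.24, and in HAMSA against HAMSB 70 had a higher value in HAMSA and the median was 0.20. The medians of all genes tested in these comparisons were −2.73e-05 and −0.00395. HAMSA 6 decided the size of both medians, which were 0.06 with 54 segments higher and 0.03 with 52 higher when it was left out. In HAMSB against NP 20 of 99 had a higher value in HAMSB (median −0.21), and in HAMS against NP 27 had a higher value in HAMS (median −0.20). Over the omissions of a library these 2 medians ran from −0.25 to −0.14 and from −0.26 to −0.12. HAMSA against NP (51 higher, median 0.03) and HAMSB against HAMS (50 higher, median 0.01) were centred near 0 with all libraries. Without HAMSA 6, HAMSA against NP had 29 of 99 segments higher and a median of −0.14. Scaled to library totals without TMM, HAMSA against NP had 48 segments higher and a median of −0.02. The erythroid markers of HAMSA 6 summed to 2534 CPM and those of HAMSA 2 to 3135 CPM, above every library of the other diets. Their part in the Ighv values was not tested.

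In HAMSB against HAMS the segments of smallest p were Ighv1-54, Ighv1-43 and Ighv1-47. Ighv1-54 stood at 9.004, 8.604, 7.49 and 5.37 CPM in HAMSB libraries 1, 2, 5 and 6, against 11.3, 11.2, 12.5 and 8.14 CPM in HAMS libraries 1, 4, 5 and 6. HAMS 6 lay among the HAMSB libraries, and the log2 fold change was −0.50 ± 0.17 (SE; edgeR adjusted p = 0.194). Ighv1-43 was at 2.16, 1.02, 1.88 and 1.27 CPM in HAMSB libraries 1, 2, 5 and 6, against 3.51, 2.599, 3.01 and 6.43 CPM in HAMS libraries 1, 4, 5 and 6. These CPM did not overlap, but the level was low, and the log2 fold change was −1.30 ± 0.50 (edgeR adjusted p = 0.246). As shares of Ighv counts the diets overlapped, with HAMSB 5 (0.1286%) just above HAMS 4 (0.1274%). For Ighv1-47 the log2 fold change of 1.25 ± 0.48 (edgeR adjusted p = 0.257) rested on HAMSB 6 and was 0.03 without it.

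In HAMSA against HAMS they were Ighv1-75, Ighv1-82 and Ighv1-37. Ighv1-75 stood at 20.5, 27.5, 14.7 and 21.9 CPM in HAMSA libraries 1, 2, 3 and 6, against 12.5, 14.4, 14.3 and 14.2 CPM in HAMS libraries 1, 4, 5 and 6. In CPM the diets did not overlap, although HAMSA 3 lay close to the HAMS libraries, and the log2 fold change was 0.61 ± 0.18 (edgeR adjusted p = 0.300). As shares of Ighv counts they overlapped, at 0.677% to 1.287% in HAMSA and 0.665% to 0.880% in HAMS libraries. Ighv1-37, of which 49.0% of windows are free of a copy, averaged 1.57 ± 1.04 CPM in HAMSA and 0.682 ± 0.225 in HAMS libraries (SD, n = 4 each). HAMSA 2 was at 3.12 CPM and the other HAMSA libraries at 0.932 to 1.22 CPM, against 0.349 to 0.847 CPM in HAMS libraries.

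Ighv1-82, which lies near the far end of the locus from the D segments, had the smallest p in HAMSA against HAMSB and in the test over all diets. It stood at 47.0, 36.3, 113 and 86.7 CPM in HAMSA libraries 1, 2, 3 and 6 and at 44.5, 30.5, 22.4 and 32.95 CPM in HAMSB libraries 1, 2, 5 and 6. In HAMS libraries 1, 4, 5 and 6 it was at 29.2, 40.5, 42.6 and 31.2 CPM, and in NP libraries 1, 3, 4 and 5 at 45.4, 41.8, 36.0 and 36.5 CPM. HAMSA 3 and HAMSA 6 were above all other libraries, while HAMSA 1 and HAMSA 2 lay in or near the range of the other diets. The log2 fold change was 1.12 ± 0.29 against HAMSB (edgeR adjusted p = 0.0850), 0.98 ± 0.29 against HAMS (edgeR adjusted p = 0.300) and 0.82 ± 0.29 against NP (edgeR adjusted p = 0.111). DESeq2 called it in HAMSA against HAMSB, and over the omissions of a library the log2 fold change against HAMSB ran from 0.79 to 1.34. Ighv1-55 (0.49 ± 0.15) and Ighv1-7 (1.04 ± 0.36) followed in HAMSA against HAMSB, with edgeR adjusted p = 0.145 and 0.172, and Ighv1-7 was at 0.31 without HAMSA 6.

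In HAMSA against NP the segment of smallest p was Ighv2-6, a member of the Q52 family. It stood at 47.3, 43.0, 53.0 and 69.6 CPM in HAMSA libraries 1, 2, 3 and 6, against 32.5, 36.1, 31.1 and 31.9 CPM in NP libraries 1, 3, 4 and 5. Every HAMSA library was above every NP library. In CPM the HAMSB (27.1 to 57.0) and HAMS (34.8 to 45.6) libraries overlapped those of NP. As shares of Ighv counts, every NP library (1.51% to 1.69%) lay below all others. The lowest share was 2.02% in HAMSA, 1.76% in HAMSB and 2.10% in HAMS libraries. Of all genes tested, 16.4%, 5.27% and 12.6% were without overlap of CPM in HAMSA, HAMSB and HAMS against NP. The log2 fold change of 0.69 ± 0.19 in HAMSA against NP missed the threshold (edgeR adjusted p = 0.0681). It passed when only HAMSA and NP were fitted (edgeR adjusted p = 0.0408). Ighv1-20 (−0.83 ± 0.29) followed after Ighv1-82, with edgeR adjusted p = 0.115.

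In HAMSB against NP Ighv1-54 had the smallest p again, with the HAMSB libraries at the values given above and NP libraries 1, 3, 4 and 5 at 11.6, 11.6, 12.7 and 9.98 CPM. The diets did not overlap, and the log2 fold change was −0.59 ± 0.17 (edgeR adjusted p = 0.299). Ighv1-78 stood at 11.6, 8.33, 7.02 and 9.82 CPM in HAMSB libraries 1, 2, 5 and 6, against 11.8, 44.3, 21.9 and 12.6 CPM in NP libraries 1, 3, 4 and 5. NP 3 was far above the rest, and the log2 fold change was −1.30 ± 0.40 (edgeR adjusted p = 0.341), and −0.75 without NP 3. Ighv3-8 followed, at 12.9, 6.97, 4.38 and 5.52 CPM in HAMSB libraries 1, 2, 5 and 6. In NP libraries 1, 3, 4 and 5 it stood at 19.95, 10.96, 9.59 and 14.8 CPM, so the diets overlapped. The HAMSB and HAMS comparisons with NP share their NP libraries.

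In HAMS against NP the smallest p was that of Ighv1-77. It stood at 3.34, 2.73, 2.57 and 3.295 CPM in HAMS libraries 1, 4, 5 and 6, against 4.51, 4.89, 5.88 and 3.57 CPM in NP libraries 1, 3, 4 and 5. In CPM the diets did not overlap, with HAMS 1 and NP 5 close to each other, and the log2 fold change was −0.66 ± 0.20 (edgeR adjusted p = 0.0831). As shares of Ighv counts they overlapped, at 0.133% to 0.204% in HAMS and 0.188% to 0.309% in NP libraries. Ighv1-76 (−0.71 ± 0.23) and Ighv1-5 (−0.51 ± 0.17) followed, with edgeR adjusted p = 0.0969 and 0.118. Without HAMS 1, Ighv1-76 and Ighv9-4 passed, and the share of all genes that passed in that fit is not given here.

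Libraries of one diet differed more in these segments than in most genes. The coefficient of variation within a diet, averaged over the 4 diets, had a median of 29.7% over the 99 segments and 16.5% over all 15021 genes, and 93 of 99 segments lay above that median of all genes. Among genes at the middle level of the segments the medians were 30.1% for 49 segments and 15.7% for all 3818 genes there. Ighv1-5 was the steadiest segment at 14.8% and Ighv2-7 the most variable at 91.3%. The order of the segments was alike in all libraries. Spearman's rho over the 97 segments with a mean of 10 counts had a median of 0.939 between libraries of the same diet (24 pairs) and 0.935 between libraries of different diets (96 pairs), a description over segments that share their libraries.

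Some segments were high in a single library. Of the 55 segments that reached 1% of Ighv counts in some library, 23 had a highest library of at least 2 times their median. The 55 were picked by their highest library, which raises such ratios. No rate over all genes was set beside the 23, so the number is a description only. Ighv2-9-1 held 13.4% of Ighv counts in HAMSB 6 (12970 counts; exact binomial 95% interval 13.2% to 13.6%), against 1.69% to 1.86% in the other HAMSB libraries and 1.28% to 2.27% in all 15 others. Ighv2-6-8, its relative in the sequences above, was at 0.218% in HAMSB 6. The same library had the highest Ighv2 family share and the lowest effective number. Ighv1-47 was also highest in HAMSB 6, at 2.61%, against 0.401% to 0.576% in the other HAMSB libraries.

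**Figure D3:**
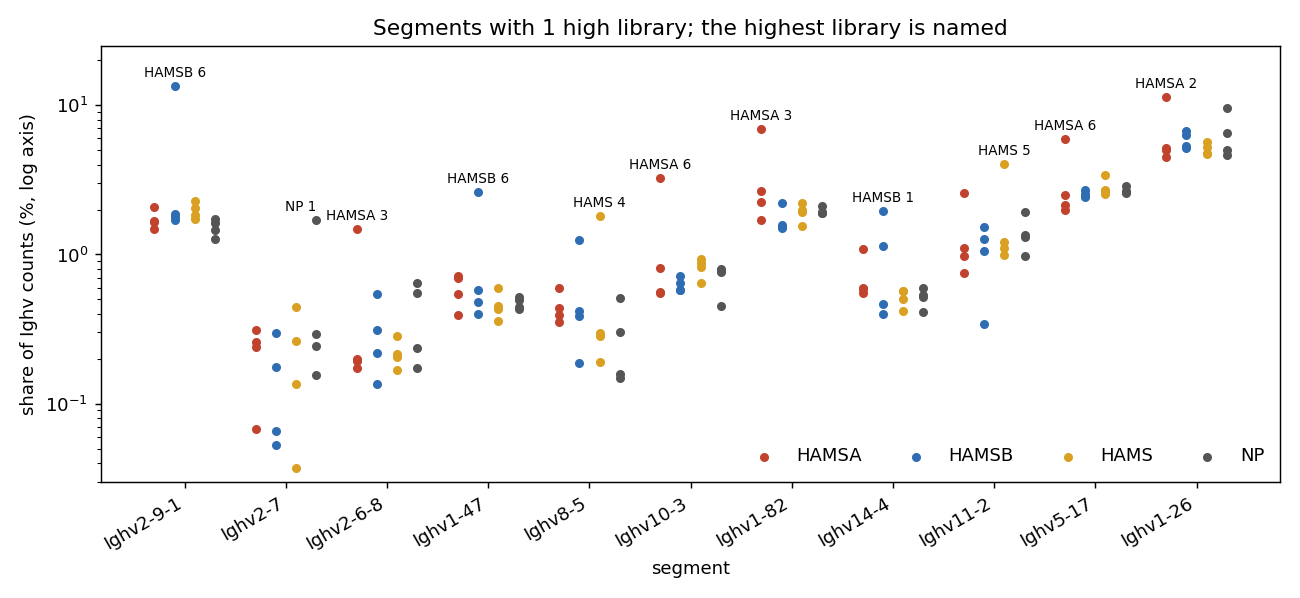
Share of Ighv counts (percent, log axis) of 11 segments in each library, in columns for HAMSA, HAMSB, HAMS and NP from left to right; each point is a library and the highest library is named. The named libraries belong to all 4 diets, and for Ighv2-9-1 HAMSB 6 lies at 13.4% with all others at 2.27% or less.

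Ighv1-82 held 6.96% in HAMSA 3 (exact binomial 95% interval 6.64% to 7.28%), against 1.71% to 2.68% in the other HAMSA libraries. Ighv2-6-8 was high in the same library, at 1.49% against 0.173% to 0.200%. HAMSA 6 held 5.92% of Ighv5-17, against 1.99% to 2.51% in the other HAMSA libraries, and 3.27% of Ighv10-3, against 0.548% to 0.816%. HAMSA 2 held 11.4% of Ighv1-26, against 4.54% to 5.14%. In the other diets, Ighv14-4 was at 1.95% in HAMSB 1, against 0.401% to 1.14% in the other HAMSB libraries. Ighv8-5 was at 1.81% in HAMS 4, against 0.191% to 0.299% in the other HAMS libraries. Ighv2-7 was at 1.71% in NP 1, against 0.156% to 0.292% in the other NP libraries. The high libraries were spread over all 4 diets. Such intervals cover counting error only.

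The 5 segments known for a specificity or a stage were also described. Ighv11-2 encodes heavy chains of B-1 cells that bind phosphatidylcholine. It held 0.978%, 2.58%, 1.11% and 0.756% in HAMSA libraries 1, 2, 3 and 6, 1.06%, 1.27%, 0.344% and 1.53% in HAMSB libraries 1, 2, 5 and 6, 1.22%, 0.996%, 4.06% and 1.11% in HAMS libraries 1, 4, 5 and 6, and 1.92%, 1.35%, 0.984% and 1.31% in NP libraries 1, 3, 4 and 5. HAMS 5 and HAMSA 2 were high and HAMSB 5 was low, and the diets overlapped. The 9 B-1 cell genes summed to 385 CPM in HAMS 5, against 219 to 345 CPM in the other HAMS libraries. The sum was higher than in HAMS 5 in HAMSA 1 (471 CPM), HAMSA 2 (404 CPM), HAMSA 3 (421 CPM) and NP 1 (513 CPM). Whether these sums go together with the Ighv11-2 shares was not tested. Ighv12-3, another segment of phosphatidylcholine-binding B-1 cells, ranged from 0.122% to 0.368% over all libraries.

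Ighv7-1, which encodes the T15 antibodies to phosphorylcholine, averaged 0.552% and was highest in NP 1 at 1.09%, against 0.526% to 0.599% in the other NP libraries. Ighv1-72, known as V186.2 from responses to nitrophenyl haptens, ranged from 0.909% to 2.03%. Ighv5-2, known as VH81X and used often early in life, ranged from 0.157% in HAMSA 6 to 0.457% in HAMSB 5. None of the 5 passed the edgeR test in any comparison.

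Use by position was set out along the locus, in 4 blocks of the 105 placed segments from the end next to the D segments. The first block, of 27 segments with all of the Ighv2 and Ighv5 families, held 30.7% of Ighv counts. The following blocks of 26 segments each held 25.5%, 24.1% and 17.1%, and the last 2 are made up of Ighv1 and Ighv8 segments. By diet the first block held 29.7% ± 2.25 in HAMSA, 32.6% ± 5.10 in HAMSB, 30.8% ± 1.84 in HAMS and 29.8% ± 0.831 in NP libraries (SD, n = 4 each). The last block held 18.1% ± 2.66 in HAMSA, 16.7% ± 3.01 in HAMSB, 16.6% ± 1.18 in HAMS and 17.1% ± 1.07 in NP libraries (SD, n = 4 each). The diets overlapped in both.

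**Figure D4:**
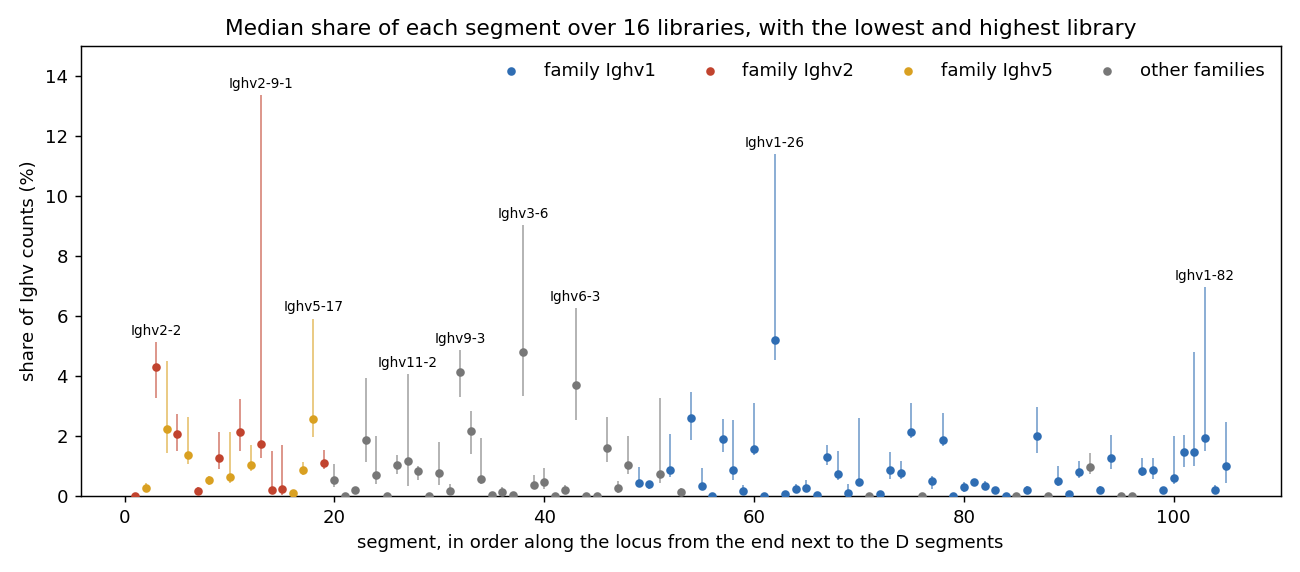
Median share of Ighv counts (percent; points) of each of the 105 placed segments over 16 libraries, with lines from the lowest to the highest library, in order along the locus from the end next to the D segments. Ighv1 segments fill the far part, and long lines such as that of Ighv2-9-1 mark segments that were high in 1 library.

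The other genes of heavy chain assembly and use were described by lists. Of 7 heavy chain constant region genes, of 4 heavy chain J segments and of 11 genes of V(D)J recombination, the cut-and-join reaction that makes the receptor, none passed the edgeR test in any of the 6 comparisons. The constant region genes of HAMSA libraries summed to 13170 to 17820 CPM, against 8595 to 13990 in HAMSB, 8745 to 17000 in HAMS and 10470 to 12460 in NP libraries. Ighm made up most of it. All 4 J segments had lower values in HAMSA against HAMSB (median log2 fold change −0.58), and also in HAMSA (−0.77), HAMSB (−0.15) and HAMS (−0.46) against NP. In HAMSB against HAMS all 4 had higher values (median 0.27), and in HAMSA against HAMS 1 of 4 did (median −0.31). The medians of the constant region genes were 0.44 in HAMSA against HAMSB, and 0.43 in HAMSA, −0.27 in HAMSB and −0.06 in HAMS against NP. They were −0.17 in HAMSB against HAMS and 0.30 in HAMSA against HAMS. The V(D)J recombination genes had medians of −0.02 to 0.19. Of 11 genes of class switching and hypermutation 1 fell in HAMSA against NP, Rev1, a polymerase that bypasses damaged bases (−0.31 ± 0.06, edgeR adjusted p = 0.0381). Of all genes tested 0.806% fell in that comparison. None passed elsewhere, and the medians were 0.03 to 0.07.

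Plasma cells hold much antibody RNA. Of 13 of their genes tested, 1 rose in HAMSB against HAMS (0.433% of all genes rose), Slamf7, a surface receptor of the SLAM family (1.199 ± 0.13, edgeR adjusted p = 0.000312). In HAMSA against HAMSB 1 rose, Creld2, a protein of the endoplasmic reticulum, and 1 fell, Slamf7, and the same genes passed in the same directions in HAMSA against NP. Of all genes tested 0.779% passed in HAMSA against HAMSB and 1.41% in HAMSA against NP. In HAMS against NP 2 rose, Xbp1, a transcription factor of secretory cells, and Creld2, and 2 fell, Slamf7 and Tnfrsf13b, the receptor TACI, where 2.27% of all genes rose and 2.06% fell. None passed in HAMSA against HAMS or HAMSB against NP. Sdc1, the plasma cell surface marker, passed in no comparison. The medians of the plasma cell genes ran from −0.04 to 0.23, and library totals without TMM turned their sign in HAMSB against HAMS, HAMSB against NP and HAMS against NP. Of 8 tested partners of the receptor, Cd22, an inhibitory coreceptor, fell in HAMSA against NP (−0.47 ± 0.10, edgeR adjusted p = 0.0388) and in HAMS against NP (−0.46 ± 0.10, edgeR adjusted p = 0.0181). Of all genes tested 0.806% and 2.06% fell in these comparisons. The medians of these partners ran from −0.05 to 0.25. Library totals without TMM also turned the sign of the medians of the partners and of the V(D)J recombination genes in HAMSB against HAMS, and of the class switching genes in HAMS against NP. Of the 9 B-1 cell genes none passed in any comparison, and their medians were 0.32 in HAMSB against HAMS, 0.54 in HAMSA against HAMS, 0.09 in HAMSA against HAMSB, 0.21 in HAMSA against NP, 0.12 in HAMSB against NP and −0.08 in HAMS against NP. Several genes of that list, Cd5, Spn and Ctla4 among them, are also made by T cells. The 6 T cell markers had medians of 1.47, 1.35, −0.11, 2.999, 3.175 and 1.66 in the same order of comparisons. Their part in the B-1 values was not tested.

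Markers of the remaining spleen cells were summed in the same way. The 3 NK cell markers summed to 3.59 to 12.3 CPM in HAMSA, 3.10 to 24.6 in HAMSB, 0.482 to 6.13 in HAMS and 0.328 to 2.97 in NP libraries. The 4 neutrophil markers summed to 37.1 to 160 CPM in HAMSA, 22.01 to 140 in HAMSB, 2.75 to 53.2 in HAMS and 3.99 to 39.4 in NP libraries. The 3 macrophage markers summed to 28.5 to 54.9 CPM in HAMSA, 12.6 to 44.9 in HAMSB, 8.61 to 24.3 in HAMS and 54.0 to 140 in NP libraries. The 3 platelet markers summed to 56.1 to 120 CPM in HAMSA, 52.6 to 132 in HAMSB, 75.4 to 169 in HAMS and 46.8 to 146 in NP libraries. By edgeR's test Ncr1 of the 3 NK markers and Elane of the 4 neutrophil markers rose in HAMSA against NP, where 0.606% of all genes rose. The 3 macrophage markers Csf1r, Vcam1 and C1qa fell in HAMS against NP, where 2.06% of all genes fell. The part of these other cells in the Ighv values was not tested.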

How the data were processed

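Poly(A) RNA from negatively selected splenic B cells was sequenced in 16 libraries, 4 for each of 4 diets. The deposited table gives raw read counts by gene and library, for reverse-stranded libraries per the file headers. STAR, featureCounts of Subread, edgeR and limma were used, per the submitters' processing notes, and their versions, the read length, the genome build and the annotation are not given in the sources used here. All sequences and positions come from GENCODE M21 on GRCm38.

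The tests were done in edgeR 4.0.16 (R 4.3.3), after its expression filter at a minimum count of 10 and TMM scaling, with all 16 libraries in a model of 1 mean per diet. Diets were compared with the quasi-likelihood test, with Benjamini-Hochberg adjustment over all 15021 genes tested. Shares use all Ighv rows. DESeq2 1.42.0, limma 3.58.1 (voom), other scalings and filters, and the omission of each library were alternatives. The tests were run on simulated data first. Between 4 and 4 libraries the smallest exact permutation p is 0.0286.

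Segments named are the 10 of highest mean share, the 8 with the largest ratio of highest library to median among those reaching 1% in a library, the 5 known for a specificity or stage, and the 3 of smallest p in each comparison without a call. The members and lists were chosen with earlier results of these data known. Of the listed genes Ighd, Ighg2a, Jchain, Iglc1, Iglc3 and Adgre1 were not analysed here.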

Additional observations from a re-analysis of the deposited data

Results flagged for a closer look

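The values in this section stood apart from the other 3 libraries of their diet by a test of gaps for small groups. Of 160 groups looked at, 24 were flagged. Chance flags about 1 group in 20, and 4 diets were looked at for each of many measures. Segments named for the ratio of their highest library to their median were among them. That rate does not apply to these segments, because they were picked for a high library. Among the families, Ighv2 held 24.77% of Ighv counts in HAMSB 6, against 12.6% to 14.2% in the other HAMSB libraries. Ighv10 held 2.857% in HAMS 6, against 1.82% to 1.89% in the other HAMS libraries, and Ighv11 held 4.114% in HAMS 5, against 1.01% to 1.23%. Ighv13 held 0.4863% in HAMSB 2, against 0.157% to 0.209%, and 0.5124% in NP 4, against 0.323% to 0.338%.

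Among the segments, HAMSB 6 held 13.37% of Ighv2-9-1 (others of its diet 1.69% to 1.86%) and 2.607% of Ighv1-47 (0.401% to 0.576%). HAMSB 1 held 2.228% of Ighv1-82 (1.503% to 1.57%). HAMSA 2 held 11.39% of Ighv1-26 (4.54% to 5.14%), and HAMSA 3 held 1.491% of Ighv2-6-8 (0.173% to 0.200%). HAMSA 6 held 5.917% of Ighv5-17 (1.99% to 2.51%), 3.272% of Ighv10-3 (0.548% to 0.816%) and, at the low end, 0.3847% of Ighv7-1 (0.669% to 0.718%). HAMSA 1 held 1.096% of Ighv14-4 (0.550% to 0.597%). HAMS 4 held 3.434% of Ighv5-17 (2.54% to 2.69%) and 1.813% of Ighv8-5 (0.191% to 0.299%), and HAMS 5 held 4.058% of Ighv11-2 (0.996% to 1.22%). NP 1 held 1.708% of Ighv2-7 (0.156% to 0.292%) and 1.085% of Ighv7-1 (0.526% to 0.599%). At the low end, NP 5 held 4.244% of Ighv9-3 (4.52% to 4.57%) and NP 3 held 0.4528% of Ighv10-3 (0.760% to 0.803%).

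The Ighv share of all counts was 0.15% in HAMSB 5, against 0.203% to 0.210% in its diet, and the effective number of segments was 48.59 in HAMSB 6, against 57.3 to 59.0. Gm16710, a row outside the name rule whose identifier is Ighv1-74 in GENCODE M21, made up 5.908% of Ighv counts in HAMS 1 when it was counted with them, against 0.461% to 0.746% in the other HAMS libraries.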

How the results depend on the processing

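Of 119 settings of the segment tests 9 gave a call. DESeq2 called 1 segment in HAMSA against HAMSB (Ighv1-82), 1 in HAMSA against NP (Ighv2-6), 3 in HAMS against NP (Ighv1-76, Ighv1-77 and Ighv1-5) and 5 over all diets (Ighv1-76, Ighv1-54, Ighv1-82, Ighv1-7 and Ighv1-78). A fit of only the 2 diets called 1 in HAMSA against NP (Ighv2-6), and library totals without TMM called 1 in HAMS against NP (Ighv1-77). Leaving out 1 library gave 0 to 2 calls in HAMS against NP (2 without HAMS 1) and 0 to 2 over all diets (1, Ighv1-82, without HAMSA 2, and 2, Ighv6-4 and Ighv1-75, without HAMSA 3). The omissions gave 0 calls in the other comparisons. The shares of all genes called in these settings are not given here, so the calls cannot be set against such a rate. Families without overlap numbered 0 in HAMSB against HAMS with TMM-scaled CPM, and 0 to 2 over the omissions of a library, with at most 1 in HAMSA against NP and in HAMSB against NP and at most 2 in HAMS against NP. Without the 10 leading segments 1 family (Ighv9) separated HAMSA from HAMSB and 1 (Ighv9) HAMSA from NP. With Gm16710 counted, a setting chosen after seeing the data, the number was 0 in HAMSB against HAMS and 1 (Ighv14) in HAMS against NP. Family names of GENCODE M21 and counts per exon length, also chosen after seeing the data, changed no count. As the inverse Simpson index the effective number was 38.32 in HAMSA, 38.71 in HAMSB, 41.97 in HAMS and 42.36 in NP libraries. Of 288 settings of the named segments' fold changes 280 kept their side of the threshold and direction and 8 passed it. Same-numbered libraries correlated at −0.25 to 0.49 over 15 pairs, 8 of them over 0.1, and 2 of 16 libraries matched best with their own number, so the numbers were not taken as pairs; with the replicate block 0 segments were called in every comparison. The median SE of a segment's log2 fold change was 0.29 in each comparison, those with the shallower HAMSA libraries included.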

Other observations

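Gm16710, the V gene outside the name rule (Ighv1-74 in GENCODE M21), had 4379 counts in HAMS 1 and 120 to 683 counts in the other 15 libraries. Counted with the Ighv rows it would raise the Ighv1 family share of HAMS 1 to 47.0%, where the share without it was 43.7%. In the other libraries the Ighv1 share moved less, for instance to 42.7% with it and 42.2% without it in HAMS 6.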
